A study of Mus musculus with 36 samples.

Results

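Laminins and the proteins bound to them form the basement membrane, the thin sheet of matrix under epithelia. The 10 genes described here encode 6 laminin chains (Lama1, Lama4, Lama5, Lamb1, Lamb2 and Lamc1), the nidogens (Nid1 and Nid2), perlecan (Hspg2) and Sparc. They were the rows with these gene names in a table of 55335 genes from mouse embryonic stem cells, and all 10 were among the 17394 genes that passed the filter on low counts. The set was chosen by measured values: Lama1 was among the genes whose log2 fold change between BPK25 and DMSO varied most between days. Values of BPK25 against DMSO are therefore given as a description, without a p-value. Counts of genes called in that contrast are listed below, but they rest on the same choice and nothing is read from them.

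A laminin is a trimer of an alpha, a beta and a gamma chain, assembled inside the cell and secreted. The chains encoded by Lama1, Lamb1 and Lamc1 form laminin-111, the main laminin of the early embryo and a major product of extraembryonic endoderm. The Lama5 chain replaces the alpha 1 chain in laminin-511, which embryonic stem cells also make and adhere to. Nidogens link the laminin network to collagen IV. Perlecan is a heparan sulfate proteoglycan of basement membranes, and Sparc is a secreted protein that binds collagen.

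The RNA-seq libraries were made from polyadenylated RNA of these cells, which are pluripotent and derive from the early embryo, at days 0, 2, 4 and 6. On each day the groups were BPK25, IAA and DMSO, with 3 libraries per group and 36 in all. BPK25 is a compound known here by its code name, IAA is auxin, which triggers breakdown of degron-tagged proteins in cells that carry them, and DMSO is the solvent control. All groups share 1 growth protocol, with LIF and serum replacement, on gelatin-coated plates that typically also held irradiated mouse embryonic fibroblasts. The labels do not name a tagged protein, a genotype, a dose, the event from which days are counted, or whether libraries of 1 group came from separate cultures. A p-value here therefore reflects library-to-library spread, which may be only technical.

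Library totals ranged from 6621288 to 16497799 counts. Levels are in CPM, which are counts relative to the TMM-scaled size of the library, and ± after a level is the SD over 3 libraries. After a log2 fold change, ± gives an approximate standard error, obtained from the fold change and the F statistic of its test. A gene was called at an adjusted p under 0.05 in edgeR's quasi-likelihood test, with Benjamini-Hochberg adjustment over the 17394 genes. The BPK25 day 4 libraries stood apart: by root mean square log2 distance between group means they lay 0.608 from DMSO day 4 and nearer, at 0.506, to IAA day 2, whereas the distance of BPK25 to its own day's DMSO was 0.262 at day 0, 0.274 at day 2 and 0.233 at day 6. For IAA that distance was 0.536, 0.715, 0.619 and 0.738 over the 4 days, and IAA day 2 was nearest to DMSO day 4, at 0.493. Whether the BPK25 day 4 libraries carry the right label could not be checked here. A fit lacking the 3 BPK25 day 4 libraries changed 1 call among the members outside BPK25, that of Hspg2 in DMSO at day 2 (adjusted p = 0.0513).

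On GRCm38, whose coordinates are those of mm10, the annotation places Lama1 at chr17:67697259-67822647 (plus strand), Lama4 at chr10:38965515-39110188 (plus strand) and Lama5 at chr2:180176373-180225859 (minus strand), the alpha chain genes. The beta and gamma chain genes are Lamb1 at chr12:31265234-31329644 (plus strand), Lamb2 at chr9:108479736-108490530 (plus strand) and Lamc1 at chr1:153218922-153332786 (minus strand). The others are Nid1 at chr13:13437551-13512269 (plus strand), Nid2 at chr14:19751265-19811787 (plus strand), Hspg2 at chr4:137468769-137570630 (plus strand) and Sparc at chr11:55394500-55423183 (minus strand). The genes lie on 10 different chromosomes.

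Levels of different genes were compared per kb of exon. In DMSO at day 0, Sparc had the highest level, 310.2 CPM per kb, followed by Lamc1 with 208, Lama1 with 94.6 and Lamb1 with 74.4 CPM per kb. The other members were lower. Nid2 stood at 48.4, Hspg2 at 26.6 and Nid1 at 22.5 CPM per kb. The low end held Lamb2 at 6.67, Lama5 at 6.19 and Lama4 at 0.328 CPM per kb. The order of Lama1 and Lamb1 depended on the length used: per kb of the longest transcript Lamb1 had 127 and Lama1 96.1 CPM per kb. Comparisons of 1 gene between groups do not use the length.

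In DMSO the laminin-111 chains and Sparc were higher at day 4 than at day 0 and higher still at day 6. Lama1, the alpha 1 chain, averaged 916 ± 17.4, 905 ± 4.9, 1312 ± 8.6 and 2994 ± 10.1 CPM at days 0, 2, 4 and 6. Lamb1, the beta 1 chain, averaged 737 ± 4.2, 669.7 ± 14.1, 1159.9 ± 34.9 and 2149 ± 30.0 CPM and Lamc1, the gamma 1 chain, 1719 ± 59.5, 1556 ± 105, 2389.7 ± 111 and 4507 ± 185 CPM at the same days. Sparc averaged 1175 ± 18.2, 1258 ± 22.6, 1589.6 ± 7.9 and 2886 ± 37.6 CPM. At day 6 all 3 libraries of each of these genes lay above all 3 of day 0.

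Between DMSO at day 6 and at day 0, 8 of the 10 members were higher and 1 was lower, where 33.2% of all genes tested were called higher and 29.5% lower. The median log2 fold change of the members was 1.21, against 0.03 over all genes tested. Lama1 had the largest change among the members, 1.71 ± 0.032 (adjusted p = 2e-40), followed by Lamb1 with 1.54 ± 0.035 (adjusted p = 5.4e-37) and Lamc1 with 1.39 ± 0.044 (adjusted p = 6.15e-31). The DMSO libraries entered the choice of the set by Lama1, so the Lama1 rank and adjusted p are not independent of that choice. Sparc rose by 1.30 ± 0.034 (adjusted p = 2.87e-34) on the log2 scale. The less abundant chains also rose, Lama4 by 1.29 ± 0.16 and Lamb2, the beta 2 chain, by 1.13 ± 0.054. Nid2 rose by 0.54 ± 0.039 and Nid1 by 0.22 ± 0.039. Lama5 was the 1 member that fell, with a log2 fold change of -0.35 ± 0.061 (adjusted p = 2.13e-06), and Hspg2 was not called at 0.09 ± 0.043 (adjusted p = 0.076).

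At day 4 against day 0 in DMSO, 7 members were higher and 3 lower, with 26.0% and 24.4% of all genes called. The members' median log2 fold change was 0.46, against 0.02 over all genes tested. Lama5, Nid1 and Hspg2 fell, with 44.0 ± 3.8 CPM of Lama5 at day 4 against 70.5 ± 3 CPM at day 0, 114 ± 1.7 against 156 ± 1.1 CPM of Nid1, and 312 ± 14.3 against 380.4 ± 11.3 CPM of Hspg2. Both Nid1 and Hspg2 stood higher again at day 6, at 181 ± 1.7 and 403 ± 15.8 CPM. At day 2 against day 0, 0 members were higher and 3 lower, with 1.59% and 3.85% of all genes called. Those 3 changes were small: Lamb1 had a log2 fold change of -0.14 ± 0.035 (adjusted p = 0.0099), Lamc1 of -0.14 ± 0.044 (adjusted p = 0.0386) and Hspg2 of -0.14 ± 0.043 (adjusted p = 0.0445). The count of lower members at day 2 was 0 when replicate 1 of either day was left out, 1 when replicate 3 of either day was left out, and 0 with no filter on low counts or when only the libraries compared were fitted.

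The pluripotency markers moved with time as well: 8 of 8 were lower in DMSO at day 4 and at day 6 than at day 0, and their summed level was 767 to 779 CPM at day 6, against 2817 to 2945 CPM at day 0. For these and the marker lists below, 26.0% of all genes tested were called higher and 24.4% lower at day 4. At day 6 these shares were 33.2% and 29.5%. For the 14 extraembryonic endoderm markers, day 4 brought 5 called increases and 4 called decreases relative to day 0. The summed level of these markers was then 1085 to 1123 CPM. At day 6, 12 were higher and 2 lower, with a summed level of 1663 to 1716 CPM against 1075 to 1118 CPM at day 0, and 0 of the 14 were without counts in either group. Markers of that lineage had counts already at day 0, with Gata6 at 65.7 ± 2.4 CPM and Dab2, an endocytic adaptor, at 349.7 ± 4.6 CPM. Of 16 fibroblast feeder markers, 7 were higher and 2 lower at day 4, and 11 higher and 2 lower at day 6, when their median log2 fold change was 1.498. Without Fn1, which other cells also make, their summed level was 70.2 to 79.9 CPM at day 0, 127 to 137 CPM at day 4 and 209.8 to 222 CPM at day 6. The part of these cells in the laminin levels was not tested. In bulk RNA, fewer cells of a type and less RNA per cell cannot be told apart.

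**Figure D1:**
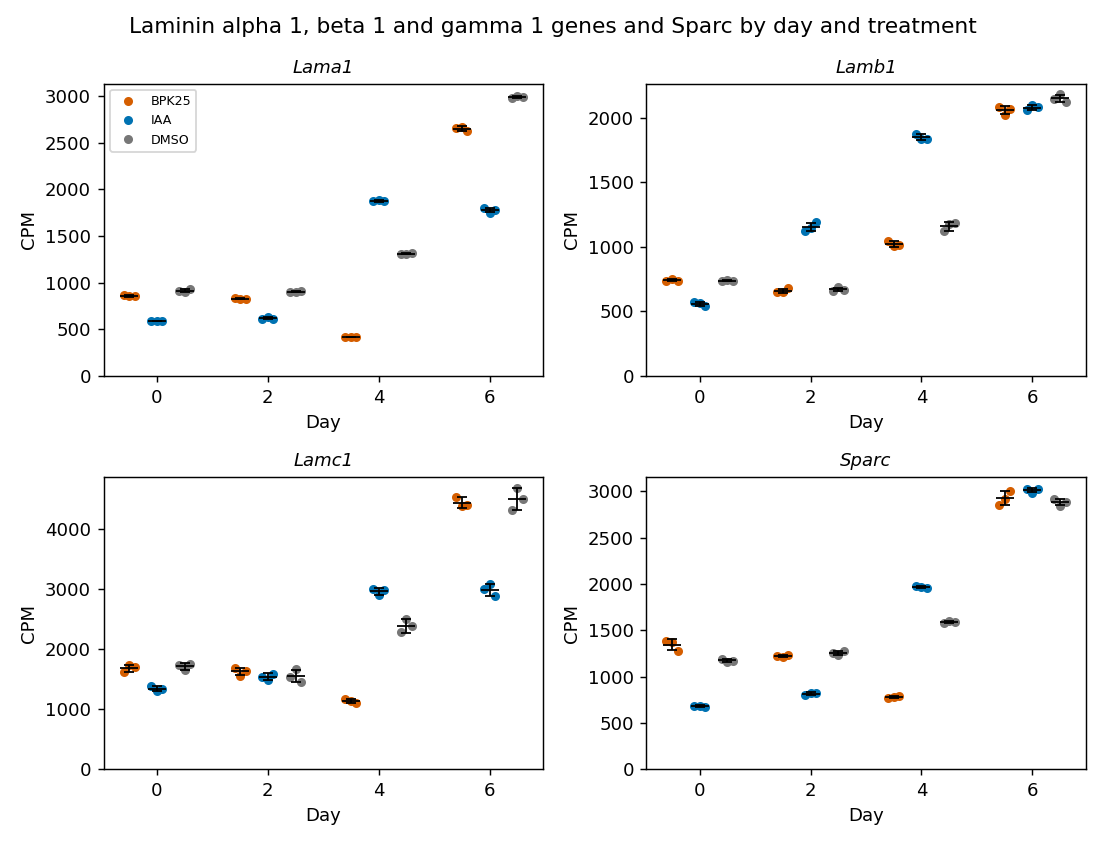
CPM of Lama1, Lamb1, Lamc1 and Sparc at days 0, 2, 4 and 6 in BPK25, IAA and DMSO. Each point is 1 library, the dash is the mean and the bar the SD of 3 libraries, and each vertical axis starts at 0. At day 4 Lama1, Lamc1 and Sparc are lowest in BPK25 and highest in IAA, while Lamb1 in BPK25 stays closer to DMSO than in IAA.

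Lama1 differed between IAA and DMSO in opposite directions on different days. At day 0 Lama1 had 586, 593 and 589 CPM in the IAA libraries, against 908, 903 and 936 CPM in the DMSO libraries. At day 2 the IAA libraries had 609, 634 and 615 CPM, against 902, 902 and 911 CPM in DMSO. All IAA libraries lay below all DMSO libraries on both days. At day 4 the order was turned round, with 1873, 1888 and 1872 CPM in IAA against 1310.2, 1305 and 1322 CPM in DMSO. At day 6 the IAA libraries had 1803, 1752 and 1782 CPM, against 2984, 3004 and 2993 CPM in DMSO. The groups did not overlap on any of the 4 days. The log2 fold changes were -0.64 ± 0.032 at day 0 (adjusted p = 5.17e-22), -0.55 ± 0.032 at day 2 (adjusted p = 3.09e-20), 0.52 ± 0.031 at day 4 (adjusted p = 1.45e-19) and -0.75 ± 0.031 at day 6 (adjusted p = 3.67e-26). The DMSO libraries of each day entered the choice of the set by Lama1, so these adjusted p are not independent of that choice. Within IAA the Lama1 level was lower at day 6 than at day 4 in every library, a step that was not tested.

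A joint test of whether the IAA effect differed between the 4 days called 10 of the 10 members, where it called 70.1% of all genes tested. Lama1 had the smallest adjusted p among the members, 1.34e-29. The same DMSO libraries entered the choice of the set by Lama1, so this rank is not independent of that choice.

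Lamc1 followed Lama1 at days 0, 4 and 6 with smaller changes. At day 0 it had 1380.0, 1305 and 1344 CPM in IAA, against 1745, 1651 and 1762 CPM in DMSO. At day 4 it had 3004, 2903 and 2991 CPM in IAA, against 2282, 2504 and 2383 CPM in DMSO. At day 6 it had 3004, 3087 and 2882 CPM in IAA, against 4326, 4696 and 4499 CPM in DMSO. The groups did not overlap on these 3 days, with IAA below DMSO at days 0 and 6 and above it at day 4. The log2 fold changes were -0.36 ± 0.044 (adjusted p = 2.45e-09), 0.31 ± 0.043 (adjusted p = 2.97e-08) and -0.59 ± 0.043 (adjusted p = 9.96e-17) at days 0, 4 and 6. At day 2 the libraries overlapped, with 1544, 1483 and 1595 CPM in IAA and 1539, 1668 and 1460.1 CPM in DMSO, a log2 fold change of -0.01 ± 0.044 (adjusted p = 0.813).

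Lamb1 took another course at day 2. At day 0 it had 570.1, 567 and 543 CPM in IAA, against 736, 742 and 734 CPM in DMSO. At day 2 it had 1123, 1149 and 1189 CPM in IAA, against 661, 686 and 662 CPM in DMSO. Lamb1 was therefore lower in every IAA library at day 0 and higher in every IAA library at day 2, when Lama1 was lower. At day 4 it had 1874, 1837 and 1831 CPM in IAA, against 1119.7, 1178 and 1182 CPM in DMSO, and at day 6 2057, 2096 and 2082 CPM in IAA, against 2142, 2182 and 2123 CPM in DMSO. Its log2 fold changes were -0.40 ± 0.035 (adjusted p = 2.21e-13), 0.78 ± 0.035 (adjusted p = 7.26e-25) and 0.67 ± 0.034 (adjusted p = 1.98e-22) at days 0, 2 and 4. At day 6 the change of -0.05 ± 0.034 was not called (adjusted p = 0.217).

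Sparc moved with Lama1 until day 4. At day 0 it had 688, 685 and 670.0 CPM in IAA, against 1196, 1161 and 1168 CPM in DMSO. At day 2 it had 798, 825 and 823 CPM in IAA, against 1261, 1234 and 1279.5 CPM in DMSO. IAA lay below DMSO without overlap on both days. At day 4 it had 1977, 1973 and 1953 CPM in IAA, against 1584, 1599 and 1586 CPM in DMSO, with every IAA library higher. At day 6 the values were 3029, 2989 and 3029.6 CPM in IAA and 2922, 2847 and 2889.6 CPM in DMSO. The log2 fold changes were -0.79 ± 0.034 (adjusted p = 1.9e-24), -0.63 ± 0.034 (adjusted p = 2.3e-21), 0.31 ± 0.033 (adjusted p = 5.69e-11) and 0.06 ± 0.033 (adjusted p = 0.096) at days 0, 2, 4 and 6. The day 6 difference was not called, although it passed the threshold with RLE size factors (adjusted p = 0.0311) and with DESeq2 (adjusted p = 0.00289), in both at a log2 fold change of 0.08.

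Lama5, Hspg2 and Nid2 were higher in IAA on all 4 days. Lama5 had 156, 153 and 155 CPM in IAA at day 0, against 73.2, 70.8 and 67.4 CPM in DMSO, and 77.9, 82.8 and 81.2 CPM in IAA at day 2, against 60.2, 62.9 and 63.9 CPM in DMSO. At day 4 it had 108, 111 and 98.4 CPM in IAA, against 48.2, 43.0 and 40.7 CPM in DMSO, and at day 6 167, 155 and 169 CPM in IAA, against 57.1, 55.5 and 52.8 CPM in DMSO. Every IAA library lay above every DMSO library of its day, by the smallest margin at day 2. The log2 fold changes were 1.13 ± 0.057 (adjusted p = 3.14e-22), 0.37 ± 0.06 (adjusted p = 6.55e-07), 1.26 ± 0.059 (adjusted p = 1.05e-23) and 1.56 ± 0.054 (adjusted p = 1.72e-29) at days 0, 2, 4 and 6. Lama5 at day 6 was the largest IAA effect of any member on any day.

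Hspg2 averaged 638 ± 9.2 CPM in IAA and 380.4 ± 11.3 CPM in DMSO at day 0, 469 ± 14.6 and 345 ± 20.8 CPM at day 2, 592 ± 15.2 and 312 ± 14.3 CPM at day 4, and 546 ± 20.7 and 403 ± 15.8 CPM at day 6. Its largest log2 fold change was 0.92 ± 0.042 at day 4 (adjusted p = 4.29e-24), and its smallest, 0.44 ± 0.042 at day 6 (adjusted p = 8.88e-13), was also called. Nid2 averaged 409 ± 4 CPM in IAA and 250.3 ± 5.7 CPM in DMSO at day 0, and 453 ± 9.7 and 364 ± 12.2 CPM at day 6. Its log2 fold changes shrank in size over the series, 0.71, 0.57, 0.46 and 0.31 at days 0, 2, 4 and 6, the last with an adjusted p of 6.1e-10. Nid2 overlaps Rtraf on the opposite strand, the 2 genes had 112795 and 37395 counts over all libraries, and no source used here states whether strand was used in counting, so reads in the overlap may be shared.

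The sequences upstream of Hspg2, Lama5, Lamb1 and Nid1 are shown because they are the 4 that hold a GC box among the 6 member promoters found. These 4 genes differed in direction in IAA: Hspg2 and Lama5 were higher on all 4 days, Lamb1 was lower at day 0 and higher at days 2 and 4, and Nid1 was lower at days 2, 4 and 6. They are the 250 bases before the annotated start, from RefSeq on GRCm38.p6, 5′ to 3′ on the strand of the gene. Capitals mark each GC box, GGGCGG or its complement CCGCCC, the motif bound by Sp1-type factors. The 4 windows lie at chr4:137468553-137468802, plus strand for Hspg2, chr2:180225860-180226109, minus strand for Lama5, chr12:31265043-31265292, plus strand for Lamb1 and chr13:13437352-13437601, plus strand for Nid1.
Hspg2: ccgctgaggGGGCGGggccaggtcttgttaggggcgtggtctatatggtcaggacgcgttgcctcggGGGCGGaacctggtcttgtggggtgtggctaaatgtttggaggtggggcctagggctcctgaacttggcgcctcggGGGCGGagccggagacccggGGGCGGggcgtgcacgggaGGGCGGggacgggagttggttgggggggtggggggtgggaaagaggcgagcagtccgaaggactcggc
Lama5: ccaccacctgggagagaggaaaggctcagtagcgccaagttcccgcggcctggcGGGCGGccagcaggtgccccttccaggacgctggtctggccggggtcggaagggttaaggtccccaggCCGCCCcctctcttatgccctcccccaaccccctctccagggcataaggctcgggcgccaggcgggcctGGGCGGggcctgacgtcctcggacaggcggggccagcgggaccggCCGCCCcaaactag
Lamb1: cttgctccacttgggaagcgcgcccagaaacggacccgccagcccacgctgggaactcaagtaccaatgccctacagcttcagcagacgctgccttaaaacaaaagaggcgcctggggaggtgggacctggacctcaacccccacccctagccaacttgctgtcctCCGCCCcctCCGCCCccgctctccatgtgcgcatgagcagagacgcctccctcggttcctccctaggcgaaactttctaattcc
Nid1: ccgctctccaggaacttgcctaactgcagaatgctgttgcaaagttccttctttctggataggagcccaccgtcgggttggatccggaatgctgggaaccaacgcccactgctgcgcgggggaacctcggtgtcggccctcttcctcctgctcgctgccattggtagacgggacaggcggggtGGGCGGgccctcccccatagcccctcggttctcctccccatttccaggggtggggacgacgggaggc
Hspg2 held 5 GC boxes, Lama5 4, Lamb1 2 and Nid1 1. The other promoters found, those of Lamb2, which was higher in IAA at days 0 and 4, and of Sparc, held 0. The RefSeq starts differ from the gene positions given above: the Lama5 window ends where that gene begins, those of Hspg2, Lamb1, Nid1 and Lamb2 run into the gene as placed there, and that of Sparc lies wholly inside it. A GC box was present in 32.7% of 32851 promoter windows of the same length. On either strand, AGATAA was in 9.99% and TGATAA in 7.94% of the windows (GATA factor motifs), AACAAT (SOX factors) in 9.42% and TGANTCA (AP-1, N being any base) in 6.75%. None of these other motifs was in the windows of the 6 members, which says only that the letters are not in these 250 bases.

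Nid1, the nidogen with the lower level of the pair, differed most from DMSO at day 2. It had 81.5, 83.0 and 80.0 CPM in IAA at day 2, against 158, 149.7 and 161 CPM in DMSO, a log2 fold change of -0.94 ± 0.042 (adjusted p = 1.81e-24). IAA and DMSO overlapped at day 0, with 159.7, 157 and 149 CPM and 156, 157 and 155 CPM (log2 fold change -0.00 ± 0.041, adjusted p = 0.944). At day 6 Nid1 was lower in IAA by a log2 fold change of -0.29 ± 0.039 (adjusted p = 5.54e-09). At day 4 it was called lower at -0.11 ± 0.041 (adjusted p = 0.0276), but the call was lost with no filter on low counts (adjusted p = 0.376) and when a single library of day 4 was left out, whether IAA replicate 1 (0.0674), IAA replicate 2 (0.0785), DMSO replicate 1 (0.0798) or DMSO replicate 3 (0.0819).

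Lamb2 rose in IAA at days 0 and 4, to 58.5 ± 3.2 CPM against 40.6 ± 0.57 CPM in DMSO at day 0 (log2 fold change 0.53 ± 0.06, adjusted p = 2.75e-10) and to 71.3 ± 1.1 CPM against 58.6 ± 1.5 CPM in DMSO at day 4 (0.29 ± 0.05, adjusted p = 4.33e-06). At days 2 and 6 its log2 fold changes of 0.09 ± 0.059 and -0.03 ± 0.046 were not called. Lama4, a chain best known from vessel basement membranes, had only 2708 counts over all libraries. It was higher in IAA at day 2, 7.30 ± 0.71 CPM against 4.54 ± 0.95 CPM in DMSO (0.64 ± 0.16, adjusted p = 0.000659), and at day 6, 13.4 ± 0.4 CPM against 9.59 ± 1.1 CPM in DMSO (0.45 ± 0.11, adjusted p = 0.000501). At days 0 and 4 its values were -0.37 ± 0.21 and -0.11 ± 0.13, neither called, and the day 4 value was 0.02 without IAA replicate 1.

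**Figure D2:**
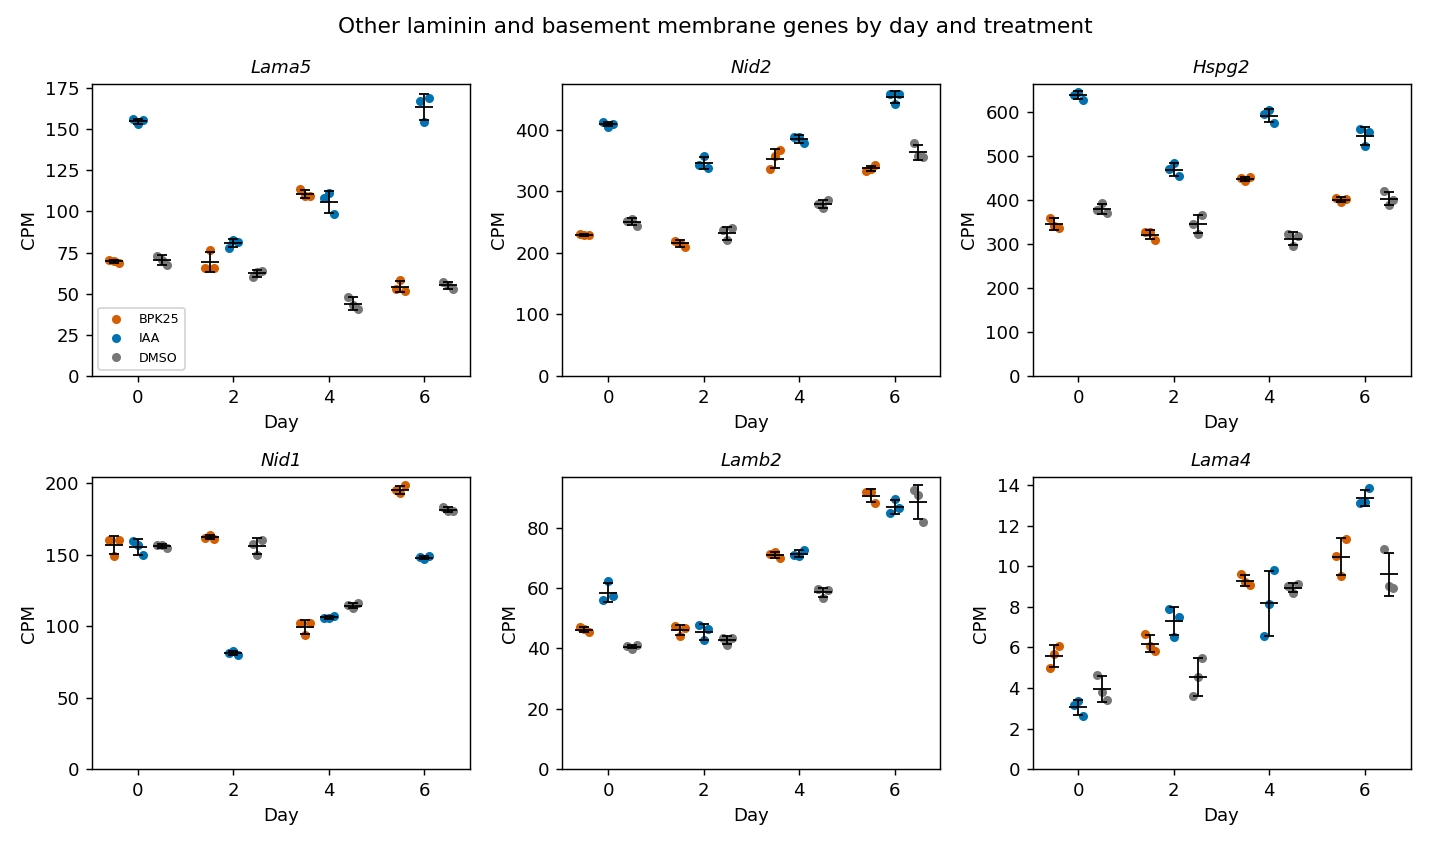
CPM of Lama5, Nid2, Hspg2, Nid1, Lamb2 and Lama4 by day and treatment. Points are libraries, dashes means and bars SDs of 3 libraries, and the vertical axes start at 0. Lama5, Nid2 and Hspg2 lie above DMSO in IAA on every day, and Nid1 in IAA is lowest at day 2.

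Counted by day, 4 members were higher and 4 lower in IAA at day 0, where 21.3% and 23.2% of all genes were called. At day 2, when IAA lay nearer to DMSO day 4 than to DMSO day 2, 5 were higher and 3 lower (27.5% and 27.9%). At day 4, 8 were higher and 1 lower (25.9% and 25.9%). At day 6, 4 were higher and 3 lower (30.6% and 30.0%). The 1 lower member at day 4 was Nid1, whose call was lost without single libraries as given above. The members' median log2 fold changes were -0.18, 0.23, 0.39 and 0.02 at days 0, 2, 4 and 6, against -0.03, -0.01, 0.00 and 0.00 over all genes tested.

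In BPK25 the members stayed near DMSO at days 0, 2 and 6 and departed from it at day 4. Lama1 had 414, 416 and 417 CPM in the BPK25 libraries at day 4, against 1310.2, 1305 and 1322 CPM in DMSO. Lamc1 had 1166, 1139 and 1112 CPM in BPK25, against 2282, 2504 and 2383 CPM in DMSO, and Sparc had 775, 782 and 791 CPM in BPK25, against 1584, 1599 and 1586 CPM in DMSO. Each of the BPK25 libraries lay below each of the DMSO libraries. Lamb1 was closer, with 1046, 1006 and 1016 CPM in BPK25 against 1119.7, 1178 and 1182 CPM in DMSO. Lama5 lay on the other side, with 114, 109.7 and 109 CPM in BPK25 against 48.2, 43.0 and 40.7 CPM in DMSO. The log2 fold changes were -1.66 ± 0.033 for Lama1, -1.07 ± 0.044 for Lamc1, -1.02 ± 0.034 for Sparc, -0.20 ± 0.042 for Nid1, -0.18 ± 0.034 for Lamb1, 0.06 ± 0.13 for Lama4, 0.28 ± 0.051 for Lamb2, 0.34 ± 0.039 for Nid2, 0.52 ± 0.043 for Hspg2 and 1.33 ± 0.059 for Lama5.

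At day 6 BPK25 had 2659, 2671 and 2620.5 CPM of Lama1, against 2984, 3004 and 2993 CPM in DMSO, and 4546, 4385 and 4403 CPM of Lamc1, against 4326, 4696 and 4499 CPM in DMSO. Lama1 lay below DMSO in every library by a log2 fold change of -0.18 ± 0.031, and the Lamc1 libraries overlapped. At days 0 and 2 the Lama1 log2 fold changes were -0.09 ± 0.032 and -0.13 ± 0.032. Outside day 4 the member with the largest log2 fold change in BPK25 was Lama4, at 0.47 ± 0.18 at day 0, with a mean of 5.58 ± 0.56 CPM against 3.95 ± 0.62 CPM in DMSO. BPK25 called 2 members higher and 2 lower at day 0 (3.32% and 4.58% of all genes), 0 and 1 at day 2 (6.40% and 7.12%), 4 and 5 at day 4 (26.2% and 26.8%) and 0 and 1 at day 6 (4.01% and 3.08%). These counts use the contrast by which the set was chosen, so nothing is read from them or from their stability. Without any 1 of the 6 libraries compared at day 0 they became 1 higher and 0 to 1 lower. At day 2 they became 3 lower without DMSO replicate 2 and 1 higher without DMSO replicate 3. BPK25 and IAA were each compared with the same DMSO libraries.

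**Figure D3:**
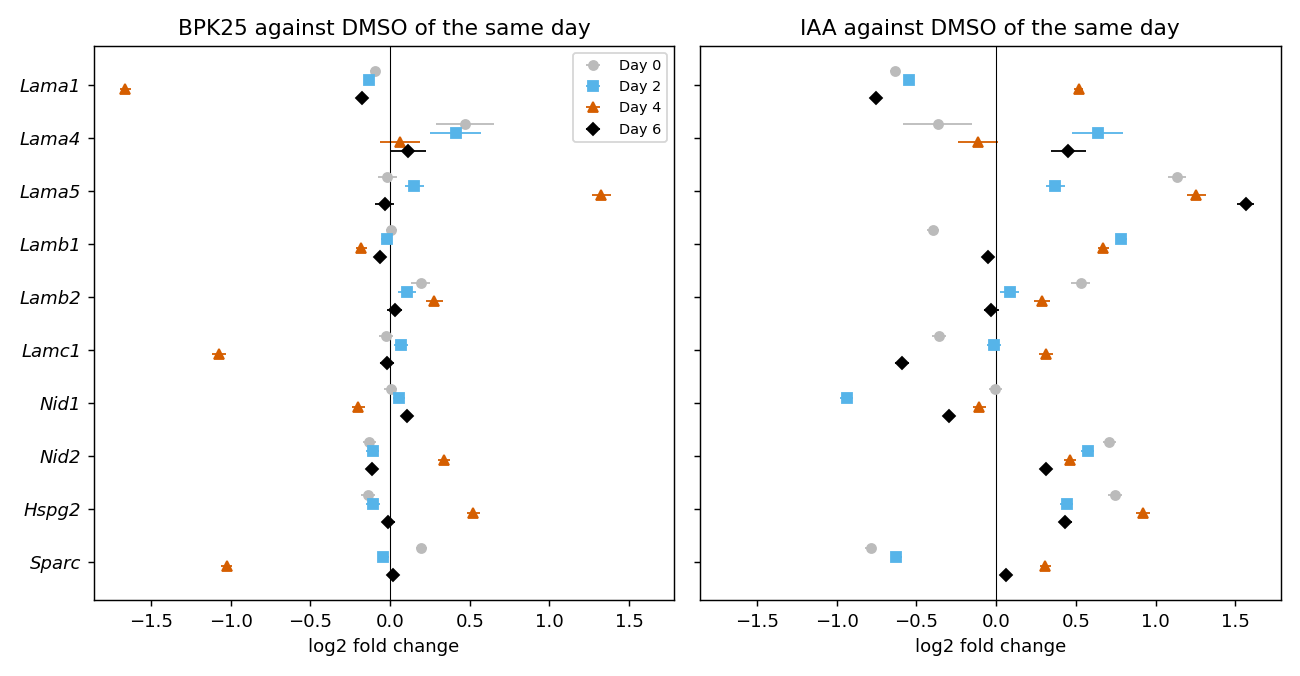
Log2 fold changes of the 10 members in BPK25 and in IAA against DMSO of the same day, with bars of 1 approximate standard error on each side. In BPK25 the day 4 values stand apart, from -1.66 for Lama1 to 1.33 for Lama5, and in IAA the 4 days differ for Lama1, from -0.75 at day 6 to 0.52 at day 4.

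The balance between chains was compared per kb of exon within each library. Lama1 made up 81.7 ± 0.23% of the summed Lama1 and Lama5 level in IAA at day 0, against 93.9 ± 0.34% in DMSO. At day 2 the share was 90.0 ± 0.15% in IAA and 94.5 ± 0.14% in DMSO, at day 4 95.4 ± 0.26% and 97.2 ± 0.24%, and at day 6 92.8 ± 0.24% and 98.5 ± 0.061%. The share was lower in every IAA library than in any DMSO library of its day, with differences of -12.1, -4.44, -1.80 and -5.70 percentage points at days 0, 2, 4 and 6. The exact permutation p was 0.1 on each day, the smallest that 3 libraries against 3 allow, and 0.109 after adjustment over the 24 tests of 6 shares and ratios. In BPK25 the share was 81.5 ± 0.38% at day 4, against 97.2 ± 0.24% in DMSO, and 98.3 ± 0.097% at day 6, against 98.5 ± 0.061% in DMSO.

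The ratio of Lamb1 to Lamc1 was 0.348 ± 0.013 in IAA and 0.358 ± 0.015 in DMSO at day 0 (exact permutation p = 0.4). It was 0.625 ± 0.02 in IAA against 0.360 ± 0.018 in DMSO at day 2, 0.520 ± 0.0085 against 0.405 ± 0.011 at day 4 and 0.580 ± 0.02 against 0.398 ± 0.013 at day 6, without overlap (exact permutation p = 0.1 each). In BPK25 the ratio was 0.749 ± 0.013 at day 4, the highest of the 12 groups. The ratio of Lama1 to Lamb1 was 0.550 ± 0.018 in IAA and 1.38 ± 0.033 in DMSO at day 2, and 0.416 ± 0.0093 in BPK25 and 1.16 ± 0.034 in DMSO at day 4. All ratios of Lama1 to Lamb1 were lower in IAA than in DMSO of the same day (exact permutation p = 0.1 on each of 4 days). The ratio of Nid1 to Nid2 was also lower in IAA on all 4 days, furthest at day 2 with 0.175 ± 0.0019 against 0.500 ± 0.0053 in DMSO (exact permutation p = 0.1). The ratio of Lama1 to Lamc1 turned direction: it was higher in IAA at day 4, 0.541 ± 0.013 against 0.470 ± 0.023 in DMSO, and lower on the other days, with 0.375 ± 0.012 against 0.455 ± 0.011 at day 0, 0.344 ± 0.019 against 0.499 ± 0.035 at day 2 and 0.509 ± 0.022 against 0.568 ± 0.021 at day 6 (exact permutation p = 0.1 each). Lamb2 as a share of Lamb1 and Lamb2 was higher in IAA at day 0, 14.5 ± 0.68% against 8.23 ± 0.15% in DMSO, and lower at day 2, 6.05 ± 0.4% against 9.44 ± 0.44%, and at day 4, 5.92 ± 0.13% against 7.61 ± 0.35% (exact permutation p = 0.1 each). At day 6 it was 6.38 ± 0.1% in IAA and 6.28 ± 0.34% in DMSO (exact permutation p = 0.9). The size of a ratio depends on the length used for each gene, but its fold difference between groups does not. For a share, the size of a difference between groups also depends on the length, but its direction does not. With the length of the longest transcript, the Lama1 share in IAA at day 0 differed from DMSO by -11.97 percentage points, against -12.12 per kb of exon.

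**Figure D4:**
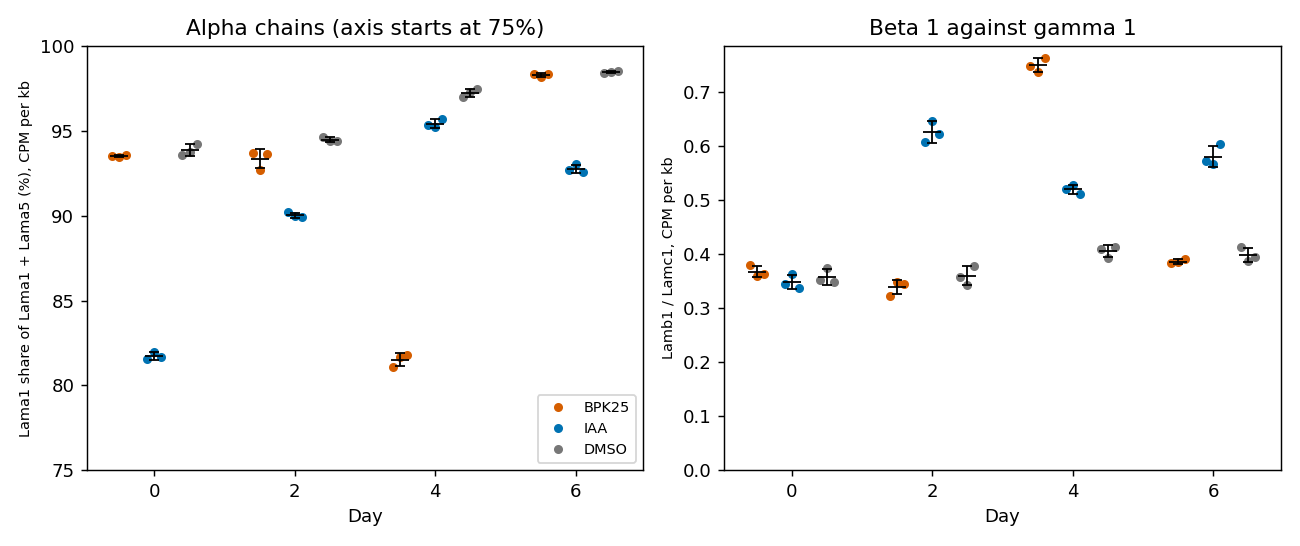
Lama1 as a share of Lama1 plus Lama5 (left, in percent, axis starting at 75%) and the ratio of Lamb1 to Lamc1 (right, axis starting at 0), both from CPM per kb of exon, in each library by day. Points are libraries, dashes means and bars SDs. The Lama1 share is lowest in BPK25 at day 4 and in IAA at day 0, and the Lamb1 to Lamc1 ratio is highest in BPK25 at day 4.

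Across the 12 group means of log2 CPM, the level of Lama1 had a Pearson r of 0.98 with Lamc1, 0.95 with Sparc and 0.78 with Lamb1. Its r with Lama5 was -0.32. Hspg2 had an r of 0.86 with Nid2 and 0.84 with Lama5, and Nid1 had none above 0.48 with any other member. These are descriptions over 12 groups that share days and treatments. The named genes outside the set most like Lama1 by the same measure were Gdpd5 (0.99), Ankrd42 (0.98), Scube2 (0.97), Trpm6 (0.97) and Gpc6 (0.97). They were chosen among genes with at least 5 CPM in 1 group, leaving out genes with provisional names (Gm numbers, Rik names or Ensembl IDs). The 12 groups include those of BPK25, by which Lama1 was chosen.

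Collagen IV, the other network-forming protein of basement membranes, had 4 of its 6 chain genes tested. In IAA 0 were higher and 2 lower at day 0, 4 and 0 at day 2, 3 and 0 at day 4, and 2 and 0 at day 6. Genes called higher in IAA made up 21.3%, 27.5%, 25.9% and 30.6% of all genes tested at days 0, 2, 4 and 6. Genes called lower made up 23.2%, 27.9%, 25.9% and 30.0%. These shares apply to each list below, and no list was tested as a set. Col4a1 averaged 4916 ± 204 CPM in IAA at day 4, against 2104 ± 9.9 CPM in DMSO (log2 fold change 1.22 ± 0.041, adjusted p = 1.7e-29), and Col4a2 had 1.15 ± 0.037 (adjusted p = 1.46e-30). At day 0 Col4a1 had a log2 fold change of -0.42 ± 0.042 and Col4a2 of -0.53 ± 0.037 in IAA, and at day 6 of 0.54 ± 0.041 and 0.47 ± 0.036, where Lama1 and Lamc1 were lower. In DMSO 4 of 4 were higher at day 6 than at day 0, where 33.2% of all genes tested were called higher. Col4a1 rose by 1.495 ± 0.042 and Col4a2 by 1.59 ± 0.037. In BPK25 at day 4 Col4a1 stood at 1249 ± 60.0 CPM, against 2104 ± 9.9 CPM in DMSO.

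Of 5 other laminin chains, 4 were tested. Lama3, an alpha chain best known from epithelial basement membranes, differed from DMSO in both directions in IAA. At day 0 it had 41.4 ± 0.97 CPM in IAA, against 54.8 ± 1.1 CPM in DMSO (log2 fold change -0.41 ± 0.064, adjusted p = 5.62e-07). It was also lower at day 2 (-0.54 ± 0.064, adjusted p = 4.8e-10). It was higher at day 4 (0.23 ± 0.066, adjusted p = 0.00277) and at day 6 (0.42 ± 0.068, adjusted p = 7.4e-07). It was lower in DMSO at day 6 than at day 0, with a log2 fold change of -1.14 ± 0.065.

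Of 12 laminin receptor genes, 6, 9, 6 and 8 were higher and 2, 2, 3 and 2 lower in IAA at days 0, 2, 4 and 6. The shares of all genes called on these days are those given with collagen IV. Itgb1, the beta 1 integrin shared by most laminin-binding integrins, rose to 468 ± 6.4 CPM in IAA at day 2, against 228 ± 9.8 CPM in DMSO (1.04 ± 0.037, adjusted p = 7.04e-29). Itga3, its partner in a receptor for laminin-511, rose by 0.52 ± 0.073 at day 2 and 0.99 ± 0.069 at day 4. Bcam, which binds the Lama5 chain, rose by 0.91 ± 0.088 at day 0 and 0.70 ± 0.13 at day 6, and Sdc1, a heparan sulfate proteoglycan, by 1.11 ± 0.079 at day 4. Dag1, dystroglycan, rose by 0.36 ± 0.042 at day 2. Itgb4, the beta 4 integrin, rose at day 0 (0.59 ± 0.14) and fell at day 2 (-1.004 ± 0.16).

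Among 20 further basement membrane components, 5, 9, 12 and 12 were higher and 7, 6, 3 and 4 lower in IAA at days 0, 2, 4 and 6. Fbln2, fibulin 2, was lower on all 4 days, with log2 fold changes of -0.77, -2.00, -1.21 and -1.98. Sparcl1, a relative of Sparc, rose by 2.23 ± 0.23 at day 4 and 2.35 ± 0.12 at day 6. Agrn, agrin, rose by 0.56 ± 0.045 at day 0. Of 11 enzymes that fold and crosslink collagen, 2, 1, 5 and 4 were higher and 8, 7, 2 and 6 lower. Serpinh1, the collagen chaperone, fell at day 0 (-0.99 ± 0.047, adjusted p = 3.45e-23) and rose at day 4 (0.73 ± 0.043, adjusted p = 7.41e-20).

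Of 13 heparan sulfate synthesis enzymes, which build the chains that perlecan carries, 1, 7, 7 and 3 were higher and 5, 2, 3 and 7 lower in IAA at days 0, 2, 4 and 6. Hs6st1 was higher on all 4 days, with log2 fold changes of 0.44, 0.74, 0.59 and 0.67, and Extl3 lower on all 4, with -0.64, -0.87, -0.80 and -0.72. Of 11 enzymes that glycosylate dystroglycan for laminin binding, 1, 5, 5 and 4 were higher and 5, 5, 1 and 3 lower. Of 12 matrix proteases and inhibitors, 2, 5, 6 and 8 were higher and 4, 6, 3 and 3 lower. Mmp15, a membrane-bound protease, rose by 2.21 ± 0.07 at day 2, 1.48 ± 0.058 at day 4 and 1.61 ± 0.052 at day 6.

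Markers of extraembryonic endoderm, which is known to make laminin-111, were counted and summed by day. In IAA at day 0, 0 of 14 extraembryonic endoderm markers were higher and 14 lower, and their summed level was 686 to 703 CPM, against 1075 to 1118 CPM in DMSO. At day 2 in IAA 6 were higher and 5 lower, with a sum of 1232 to 1287 CPM against 938 to 964 CPM in DMSO. At day 4 in IAA 5 were higher and 4 lower, with a sum of 2026 to 2039 CPM against 1085 to 1123 CPM in DMSO, and at day 6 3 were higher and 9 lower, with 1598 to 1669 CPM against 1663 to 1716 CPM, sums that overlap. Gata4 stood at 21.2 ± 2.8 CPM in IAA and 32.8 ± 1.8 CPM in DMSO at day 0, and Cubn, an endocytic receptor, at 799 ± 8.8 CPM in IAA and 224 ± 7.8 CPM in DMSO at day 4. Cubn alone made up a large part of the day 4 difference in the sums. In BPK25 at day 4, 2 were higher and 11 lower, where 26.2% and 26.8% of all genes tested were called. Their sum was 886 to 898 CPM against 1085 to 1123 CPM in DMSO, and Gata4 stood at 10.4 ± 0.26 against 29.7 ± 0.91 CPM. The set was chosen by BPK25 against DMSO, and the day 4 label could not be checked, so nothing is read from these counts. None of the 14 was at 0 in any group. Their part in the laminin values was not tested.

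Of 16 fibroblast feeder markers, 5, 5, 7 and 8 were higher and 2, 6, 5 and 5 lower in IAA at days 0, 2, 4 and 6. The sum was led by Fn1, at 1643 ± 35.1 CPM in IAA and 1163 ± 25.8 CPM in DMSO at day 0, which other cells also make, so it is given without that gene, a choice made after its values were seen. That sum was 91.5 to 96.2 CPM in IAA and 70.2 to 79.9 CPM in DMSO at day 0, 123 to 129 and 76.5 to 82.3 CPM at day 2, 178 to 188 and 127 to 137 CPM at day 4, and 369.9 to 372 and 209.8 to 222 CPM at day 6. In BPK25 at day 4 it was 134 to 145 CPM. Lum, Dcn and S100a4 were at 0 in IAA day 2 and BPK25 day 4, Lum also in IAA day 0 and S100a4 also in IAA days 4 and 6. Of 8 endothelial markers, 0, 1, 3 and 3 were higher and 2, 6, 1 and 3 lower in IAA at days 0, 2, 4 and 6, and their sum was 219 to 229 CPM in IAA and 325 to 333 CPM in DMSO at day 2, and 122 to 130.4 CPM in IAA and 97.2 to 109 CPM in DMSO at day 6. Lama4 was called higher in IAA on both of these days. At day 0 the endothelial sum was 276 to 281 CPM in IAA and 318 to 326 CPM in DMSO. At day 4 it was 150 to 158 CPM in IAA and 127 to 132 CPM in DMSO. Lama4 was not called in IAA at days 0 and 4. The sum was led by Pecam1, at 184 ± 4.9 CPM in IAA and 282 ± 6.2 CPM in DMSO at day 2, and 66.2 ± 4.8 CPM in IAA and 43.2 ± 1.7 CPM in DMSO at day 6. Pecam1 fell with time in DMSO, from 271 ± 3.9 CPM at day 0, as the pluripotency markers did. At day 6 Pecam1, Kdr and Emcn were called higher in IAA, and Cdh5, Tek and Eng lower. Emcn had few counts, at 1.98 ± 0.61 CPM in IAA and 0.166 ± 0.044 CPM in DMSO. Of 8 pluripotency markers, 7 were higher and 0 lower in IAA at day 0, with a sum of 3964 to 4015 CPM against 2817 to 2945 CPM in DMSO, and 0 higher and 7 lower at day 2, with 1581 to 1604 CPM against 2703 to 2714 CPM. At day 4, 0 were higher and 6 lower, and at day 6, 1 was higher and 5 lower. The part of these cells and states in the members' values was not tested.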

How the data were processed

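Polyadenylated RNA of 36 libraries was counted per gene. The table deposited by the authors held 1 column of read counts per library, per the file headers, all whole numbers with totals that differ between libraries. Per the submitters' processing notes, HISAT2 2.1.0 and featureCounts 2.0.1 were used on the mm10 genome, beside FastQC 0.11.7 and DESeq2. Strand use, annotation version, read filters and the DESeq2 release are each not given in the sources used here. In all, the table had 0 sample columns left unused.

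Here, filterByExpr of edgeR, run over 12 groups with a minimum count of 10 and a minimum total of 15, left 17394 of 55335 genes, which were scaled by TMM. All 36 libraries entered 1 edgeR quasi-likelihood fit of 12 groups (glmQLFit, glmQLFTest), two-sided, with Benjamini-Hochberg adjustment over the genes tested. Contrasts set IAA and BPK25 against same-day DMSO and DMSO days 2, 4 and 6 against day 0, with a joint test of the IAA effect over days. Shares and ratios had exact two-sided permutation tests. The software was edgeR 4.0.16 and DESeq2 1.42.0 with limma 3.58.1 in R 4.3.3. Positions and exon lengths came from GENCODE M21 on GRCm38: 55154 gene IDs matched without their version and 54587 with it. Library totals of 6621288 to 16497799 set the counting precision.

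The members and the lists were chosen with earlier results of these data known. All members are named; from each other list at most 4 genes per comparison could be, those with the largest absolute log2 fold change among genes called, with at least 5 CPM in 1 group and no overlap between groups. Exceptions were marker genes given by level, values of a named gene repeated for other days, and the endothelial markers called in IAA at day 6, all of which are named. One gene that this rule names is not reported here. On simulated counts for IAA against DMSO at day 0 (17394 genes) the test recovered 54%, 80%, 96% and 100% of the 50 genes each changed 1.25, 1.5, 2 and 4-fold, with 4.07% false calls. The simulation drew counts from the fitted model and changed only those genes, whereas 21.3% were called higher and 23.2% lower in the data. Recovery and false calls in the data may therefore differ from these values. Same-numbered libraries did not deviate together (r from -0.0282 to 0.026 in 33 pairs), so no pairing was used. Replicates differed by more than sampling noise (chi-square per degree of freedom 1.381 to 3.066 in 36 pairs). Alternatives were a fit of just the libraries compared, leaving out single libraries, a replicate block, DESeq2, RLE size factors, and either no filter or one of 1 CPM in 3 libraries. A fit lacking the BPK25 day 4 libraries was chosen after seeing the data.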

Additional observations from a re-analysis of the deposited data

Results flagged for a closer look

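The IAA effect, the log2 fold change of IAA against DMSO, differed between the 4 days for all 10 members in the joint quasi-likelihood test of edgeR. The adjusted p was 1.34e-29 for Lama1, 3.26e-27 for Lamb1, 2.35e-26 for Sparc, 1.03e-18 for Nid1, 2.61e-17 for Lamc1 and 1.31e-16 for Lama5. It was 1.63e-10 for Hspg2, 6.8e-08 for Lamb2, 1.95e-07 for Nid2 and 0.000316 for Lama4. The test called 70.1% of all genes, so a call here does not set the members apart. The set was chosen by Lama1 in BPK25 against the same DMSO libraries, so the Lama1 value is not independent of that choice. Lama1, Lamb1, Lamc1 and Sparc had called effects of both signs, whereas the called effects of Lama5, Nid2 and Hspg2 were positive on each day and differed in size.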

How the results depend on the processing

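Of 1419 member log2 fold changes recomputed under the alternatives, 1356 kept their side of the threshold, 50 lost and 11 gained a call, 2 that were not called turned and moved past their spread and 0 called ones reversed. In all, 22 changed sign, 0 of them called before or after. RLE size factors moved the median of all genes by at most 0.0217 (log2). For IAA against DMSO, the count of lower members at day 4 became 0 with no filter on low counts and ranged from 0 to 1 when single libraries were left out; the other IAA counts and the joint test stayed within 1.5 times. For DMSO day 2 against day 0, lower members became 0 with no filter and with only the libraries compared, and ranged from 0 to 2 without single libraries, while higher members became 1 with DESeq2 and ranged from 0 to 1. For BPK25 at day 0, higher members became 1 with no filter, with only the libraries compared and with DESeq2 and ranged from 1 to 1, and lower members became 0 with the first 2 of these and ranged from 0 to 1. For BPK25 at day 2, lower members became 0 with no filter and with only the libraries compared, 2 with DESeq2 and ranged from 1 to 3, and higher members ranged from 0 to 1. For BPK25 at day 6, higher members became 1 with RLE size factors and with DESeq2. The cause was not tested. The BPK25 counts rest on the contrast by which the set was chosen, so nothing is read from their stability. With a replicate block, members higher in IAA at day 4 numbered 8, as without it, and no count of members changed by more than 1.5 times. For the joint test the DESeq2 alternative was a likelihood ratio test. Depth limits Lama4 most.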
